A study of Homo sapiens with 9 samples.

Results

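Transcript levels of 10 human genes that carry drugs, copper and platinum across membranes were read from RNA sequencing of A549, an established lung adenocarcinoma cell line. The genes were chosen by symbol, and 10 of 10 were found among the 62257 gene rows of the deposited tables. They are the efflux pumps ABCB1, ABCC1, ABCC2, ABCC3, ABCC4 and ABCG2, the copper-transporting ATPases ATP7A and ATP7B, the copper importer SLC31A1 and the anion channel subunit LRRC8A. All cells were sampled at 96 h of treatment, and each of the 3 groups held 3 libraries. Control cells received phosphate-buffered saline (PBS). The DDP_apoEV group received apoptotic extracellular vesicles, membrane particles released by dying cells, from apoptosis induced with cisplatin, a platinum drug that crosslinks DNA. The STS_apoEV group received vesicles from apoptosis induced with staurosporine, a kinase inhibitor. The labels do not name the cells that released the vesicles, and no cells given either drug itself were analysed here.

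ABC transporters use ATP to push drugs, conjugates and lipids out of the cell, and the ABCC members favour glutathione, glucuronide and sulfate conjugates. Cisplatin can enter cells partly through SLC31A1 and through volume-regulated anion channels that contain LRRC8A, and ATP7A and ATP7B have been linked to its sequestration and export. In lung epithelium these carriers are studied as part of the barrier against inhaled and blood-borne compounds and of drug resistance in tumours.

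Library totals ran from 13799950 to 16526399 counts, and the totals of the DDP_apoEV libraries were above those of the other groups. The keratin and other lung epithelial or A549 markers, 13 genes, summed to 25701 to 26515 CPM, counts scaled to library size, in control. The sum was 18271 to 19730 in DDP_apoEV and 23467 to 23902 in STS_apoEV. ALDH1A1 made up 37.4% of that sum, which holds moves in both directions. By the edgeR test described below, 6 of 10 tested markers were lower with STS_apoEV and 3 higher, beside 16.8% and 15.9% of all genes. With DDP_apoEV 4 were lower and 0 higher, beside 8.32% and 7.16%. Among the defining markers of lung alveolar cells, NKX2-1 had 0 to 3 counts, SFTPC 0 to 8, SFTPB 0 to 14 and NAPSA 4 to 38 in any library. The 12 leukocyte markers summed to 8.51 to 13.0 CPM in control and 11.6 to 12.2 in DDP_apoEV, and to 15.0 to 21.1 in STS_apoEV. CD14 made up 91.2% of it, and MS4A1, CD163 and AIF1 were at 0 in every library. The 9 fibroblast markers summed to 4.25 to 5.81, 3.57 to 4.75 and 5.95 to 7.90 CPM in the same order of groups, with FAP at 0, and the 7 endothelial markers to 1.78 to 2.07, 1.69 to 1.82 and 2.83 to 4.52 CPM. The 8 hepatocyte markers summed to 0.892 to 1.81, 0.313 to 0.726 and 1.59 to 2.39 CPM, and the 8 red cell or platelet markers to 1.48 to 3.16, 2.57 to 4.75 and 0.877 to 1.88 CPM, with HBA2 at 0. The part of these marker levels in the results was not tested.

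The stretches before 4 start sites are shown because these members hold the largest fall (ABCB1), the smallest p over the 3 groups (ABCG2), the highest level (ABCC2) and a rise with both vesicles (SLC31A1). Each is the 250 bases before a RefSeq start site on GRCh38.p14, written 5′ to 3′ on the gene's own strand. Capitals mark matches, on either strand, to any of 4 letter patterns. They are GCGTG, the core bound by the aryl hydrocarbon receptor, GGGCGG, a GC box, TGCNCNC, the core of metal response elements, and CCAAT. The ABCB1 stretch lies at chr7:87600885-87601134 on the minus strand, the ABCG2 stretch at chr4:88158860-88159109 on the minus strand, the ABCC2 stretch at chr10:99782390-99782639 on the plus strand and the SLC31A1 stretch at chr9:113221294-113221543 on the plus strand.
ABCB1: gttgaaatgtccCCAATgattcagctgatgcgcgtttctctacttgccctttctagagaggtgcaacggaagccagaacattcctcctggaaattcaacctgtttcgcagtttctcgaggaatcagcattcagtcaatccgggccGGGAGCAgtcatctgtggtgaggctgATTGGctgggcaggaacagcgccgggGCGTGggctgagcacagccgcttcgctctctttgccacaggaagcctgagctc
ABCG2: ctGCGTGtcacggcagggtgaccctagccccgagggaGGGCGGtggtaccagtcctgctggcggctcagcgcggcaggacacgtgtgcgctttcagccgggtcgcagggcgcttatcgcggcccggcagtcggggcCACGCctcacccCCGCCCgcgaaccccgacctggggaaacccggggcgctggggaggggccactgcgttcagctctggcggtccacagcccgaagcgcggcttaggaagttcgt
ABCC2: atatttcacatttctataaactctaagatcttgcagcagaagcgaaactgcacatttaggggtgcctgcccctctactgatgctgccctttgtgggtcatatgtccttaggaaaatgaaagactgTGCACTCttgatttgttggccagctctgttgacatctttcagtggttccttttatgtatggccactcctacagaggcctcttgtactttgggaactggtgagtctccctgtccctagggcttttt
SLC31A1: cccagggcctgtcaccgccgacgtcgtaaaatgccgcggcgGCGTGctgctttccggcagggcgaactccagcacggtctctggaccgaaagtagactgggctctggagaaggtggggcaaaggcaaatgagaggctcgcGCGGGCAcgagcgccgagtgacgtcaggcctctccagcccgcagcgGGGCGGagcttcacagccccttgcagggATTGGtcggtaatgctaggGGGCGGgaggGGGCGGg

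The ABCB1 stretch, with a GC content of 55.6%, held CCAAT at position −238 and its reverse complement at −79, counted from the start site. The SLC31A1 stretch, at 68.0% GC, held GGGCGG at −64, −17 and −7 and a reversed CCAAT at −36. The ABCG2 stretch, at 72.4% GC, held GGGCGG on one strand at −213 and on the other at −102, and it held GCGTG at −248 and reversed at −114. The ABCC2 stretch, at 45.6% GC, held 1 match, to TGCNCNC at −125. RefSeq entries matched 8 of the 10 members, and ABCC1 and ABCC3 had none. Over all 300-base windows of the 8 members, which reach past the start site, a match to GCGTG was found in 6, to GGGCGG in 4, to TGCNCNC in 7 and to CCAAT in 3. A match to another pattern, TGACNNNGC, the core of antioxidant response elements, was found in 2 and in none of the stretches printed. Of 35116 human RefSeq promoter windows of that length, 36.5% held GCGTG, 45% GGGCGG, 55.9% TGCNCNC, 34.6% CCAAT and 13.3% TGACNNNGC on either strand. Counted by gene over all of its windows, as for the members, the shares of 27305 genes were 40.6%, 48.3%, 59.4%, 39.7% and 16.1%. A match describes these letters only. Some members have several start sites and so several windows. ABCB1 has 2 and ABCG2 5, and other stretches of these genes are not printed. Of those, the ABCB1 stretch at chr7:87713296-87713545 and the ABCG2 stretch at chr4:88231627-88231876 held no match.

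Levels differed widely between the carriers. On the FPKM scale (fragments scaled by gene length and library size, n = 3 libraries a group, mean ± SD), ABCC2 led in every group, at 109 ± 5.66 in control, 87.1 ± 3.37 in DDP_apoEV and 119 ± 5.34 in STS_apoEV. ABCC3 followed at 41.5 ± 2.65, 34.7 ± 0.441 and 52.6 ± 4.23, and ABCG2 came next at 31.7 ± 0.976, 22.6 ± 1.57 and 20.5 ± 1.52. In control the order then ran ABCC4 (15.0), SLC31A1 (13.7), LRRC8A (6.80), ATP7A (2.44), ABCC1 (1.56), ABCB1 (0.602) and ATP7B (0.320). At the deposited gene lengths, no neighbours in that order overlapped between libraries. The order changed with both vesicles at the same place, since SLC31A1, at 16.2 FPKM in DDP_apoEV and 16.5 in STS_apoEV, stood above ABCC4, at 14.2 and 11.1. ABCB1 was last with DDP_apoEV, at 0.0812 ± 0.0770 FPKM, below ATP7B at 0.278 ± 0.0215. With STS_apoEV, ABCC1 (2.27 FPKM) and ATP7A (1.80) overlapped between libraries, as did ATP7B (0.235) and ABCB1 (0.215), so their order there was not resolved.

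**Figure D1:**
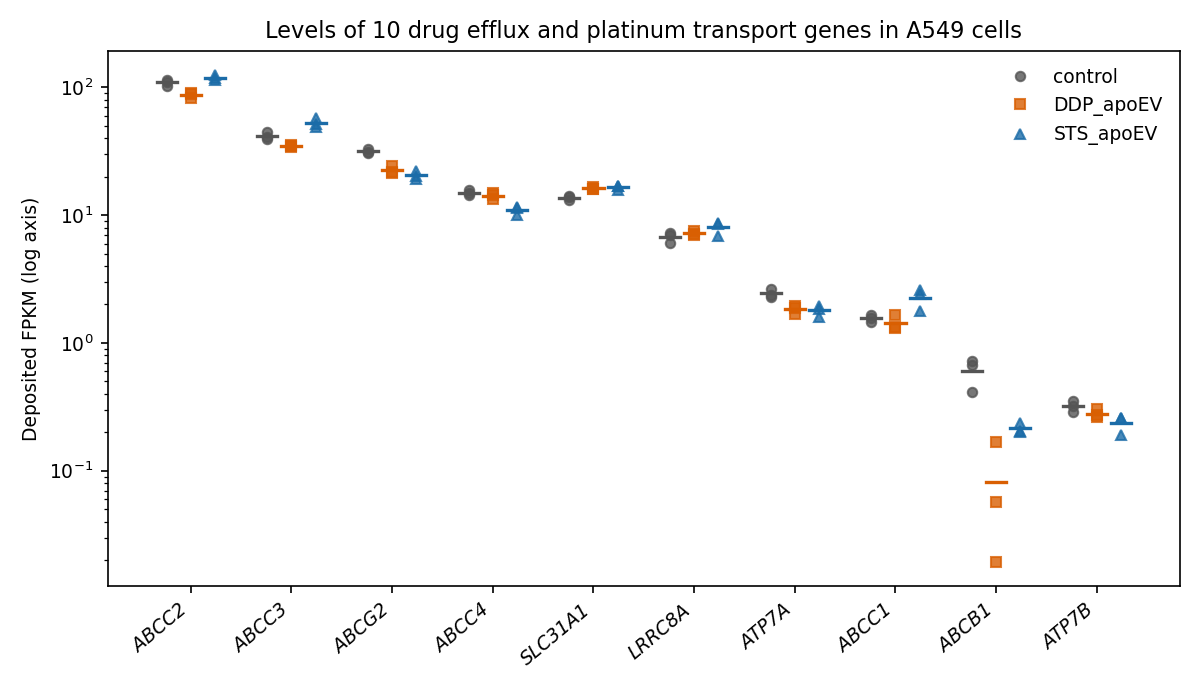
Level of each of the 10 carriers in each library, in FPKM on a log axis, with points for the 3 libraries of a group and a mark at the group mean. ABCC2 is highest in all 3 groups, and ABCB1 ranges from 0.0194 to 0.723 over the 9 libraries.

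Summed over the 6 ABC pumps, the level was 199.7 ± 7.23 FPKM in control, 160.15 ± 5.87 in DDP_apoEV and 206 ± 8.60 in STS_apoEV (n = 3 each). The DDP_apoEV libraries, at 154 to 165, lay below those of control, at 191 to 204, and those of STS_apoEV, at 199 to 216. ABCC2 made up 54.8% of the sum in control, 54.4% in DDP_apoEV and 57.9% in STS_apoEV. The share of ABCC3 was 20.8%, 21.7% and 25.6%, that of ABCG2 15.9%, 14.1% and 9.97%, and that of ABCC4 7.52%, 8.89% and 5.37%. Levels of ATP7A and ATP7B depend on the gene length used. The deposited lengths are 28126 and 18808 bp, against 10920 and 9671 bp for the joined exons in GENCODE v29, and with those the control means would be 6.30 and 0.622 FPKM. The deposited control values were 6.09 to 7.26 for LRRC8A and a mean of 0.602 for ABCB1, at 5209 and 6422 bp. Their joined exons in GENCODE v29 span 5230 and 5806 bp, so these values are on another scale. With STS_apoEV, ATP7A and ABCC1 would be at 4.64 and 2.62 by GENCODE v29 lengths, the reverse of their order by deposited means. The order above is given for the deposited lengths. It was not worked out with every gene on GENCODE v29 lengths.

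All 10 members entered the test of 16947 genes. A gene was called where edgeR's quasi-likelihood test with Benjamini-Hochberg adjustment over all tested genes gave an adjusted p under 0.05. No label states that replicates were grown as separate cultures, and p-values therefore measure the spread between these libraries, which may be technical. In bulk RNA, fewer cells holding a transcript and less of it per cell cannot be told apart. The 2 comparisons with control share their control libraries.

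With DDP_apoEV against control, 6 of 10 members were called, beside 15.5% of all genes tested. ABCB1, ABCC2, ABCC3, ABCG2 and ATP7A fell, 5 members beside 8.32% of all genes, and SLC31A1 rose, 1 beside 7.16%. The median log2 fold change was −0.24 over the members and −0.00 over all genes. With STS_apoEV against control, 8 of 10 were called, beside 32.8% of all genes. ABCC1, ABCC3, SLC31A1 and LRRC8A rose, 4 beside 15.9%, and ABCB1, ABCC4, ABCG2 and ATP7A fell, 4 beside 16.8%, with a median of −0.14 over the members and 0.01 over all genes. Between the vesicle types, 5 of 10 differed, beside 39.7% of all genes. ABCB1, ABCC1, ABCC2 and ABCC3 were higher with STS_apoEV, 4 beside 20.2%, and ABCC4 was lower, 1 beside 19.5%, with a median of 0.11 over the members and 0.03 over all genes. The libraries of the groups did not overlap for 6 members in the first comparison, 9 in the second and 5 in the third, beside 32.2%, 43.3% and 47.5% of all genes.

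**Figure D2:**
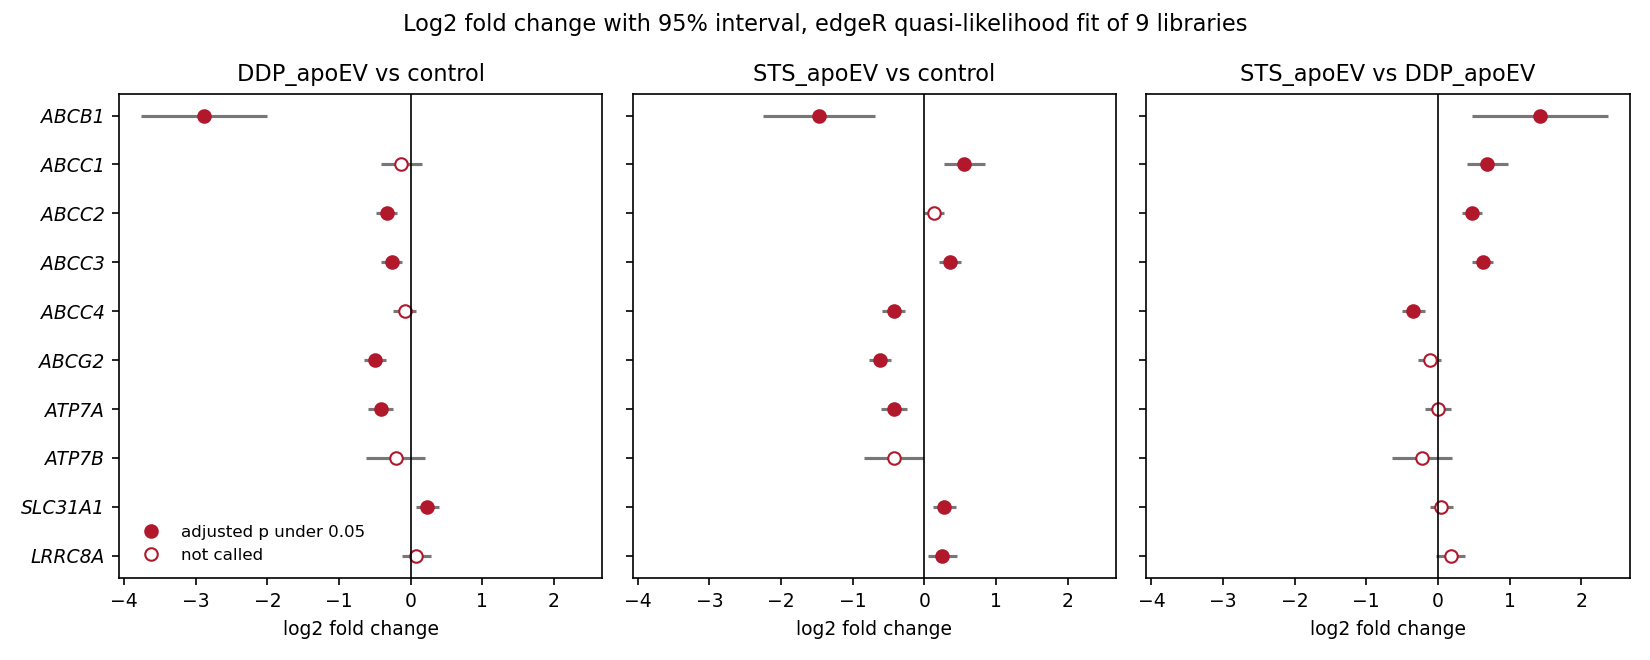
Log2 fold change of each carrier in the 3 comparisons, as points with 95% confidence intervals, filled where called (adjusted p under 0.05) and open where not. Intervals were worked out from the edgeR log2 fold change and F statistic. ABCB1 has the largest change against control with either vesicle, and ABCG2 and ATP7A lie below 0 with both.

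ABCB1 encodes P-glycoprotein, which exports many hydrophobic drugs, and it had the largest fall of the members with either vesicle. Its row spans chromosome 7 from 87503017 to 87713323 on the minus strand of hg38 and is protein-coding in GENCODE v29. The libraries held 72, 63 and 39 counts in control, 2, 6 and 17 in DDP_apoEV, and 19, 20 and 22 in STS_apoEV. All treated libraries lay below all controls, and the groups did not overlap. The SD was largest in control, while relative to the mean the DDP_apoEV libraries were the most spread. Scaled to library size, the means were 3.90 ± 1.05 CPM in control, 0.524 ± 0.497 in DDP_apoEV and 1.41 ± 0.120 in STS_apoEV (SD, n = 3). ABCB1 was 7.40-fold lower with DDP_apoEV than in control (log2 fold change −2.89, SE 0.428, adjusted p = 1.17e-05) and 2.76-fold lower with STS_apoEV (log2 −1.46, SE 0.381, adjusted p = 0.00335). It was 2.68-fold higher with STS_apoEV than with DDP_apoEV (log2 1.42, SE 0.464, adjusted p = 0.0152).

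The counts of ABCB1 are few, and DDP_apoEV replicate 3, with 17 counts, stood nearest to the STS_apoEV libraries. Without it the change against control was −3.94 and the difference between vesicle types 2.47 on the log2 scale. The difference between vesicle types was no longer called without DDP_apoEV replicate 1 (log2 0.96, adjusted p = 0.0948), without DDP_apoEV replicate 2 (adjusted p = 0.0712) or without STS_apoEV replicate 3 (adjusted p = 0.0527). In limma fitted on log2(FPKM + 1) with no filter, which shrinks changes of low genes, the fall was 0.56 with DDP_apoEV (adjusted p = 0.0369), 0.39 with STS_apoEV (adjusted p = 0.0570), and the difference was 0.17 (adjusted p = 0.426).

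ABCG2, the breast cancer resistance protein, exports urate, porphyrins and several chemotherapeutics, and it fell with both vesicles. Its row spans chromosome 4 from 88090150 to 88231628 on the minus strand. The libraries held 178, 173 and 186 CPM in control, 120, 123 and 137 in DDP_apoEV, and 110, 116 and 126 in STS_apoEV. Every treated library lay below every control, while the 2 vesicle groups overlapped. The means were 179 ± 6.46, 127 ± 8.85 and 117 ± 8.09 CPM (SD, n = 3). The fall was 1.41-fold with DDP_apoEV (log2 −0.50, SE 0.0760, adjusted p = 1.05e-05) and 1.53-fold with STS_apoEV (log2 −0.61, SE 0.0764, adjusted p = 1.00e-07). The difference between the vesicle types was not called (log2 −0.12, 95% interval −0.27 to 0.04, adjusted p = 0.239). ABCG2 had the smallest adjusted p of the members over the 3 groups together, 5.67e-08.

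ABCC2 and ABCC3 export conjugates, across the apical membrane of polarised cells for ABCC2 and the basolateral membrane for ABCC3. Both fell with DDP_apoEV, and ABCC3 rose with STS_apoEV. ABCC2 (chromosome 10, 99782640 to 99852594, plus strand) held 818, 903 and 877 CPM in control, 656, 695 and 706 in DDP_apoEV, and 1004, 916 and 941 in STS_apoEV. All DDP_apoEV libraries were below the controls and all STS_apoEV libraries above them. The means were 866 ± 43.5, 686 ± 26.3 and 954 ± 45.3 CPM (SD, n = 3). ABCC2 fell 1.26-fold with DDP_apoEV (log2 −0.34, SE 0.0691, adjusted p = 0.000619). With STS_apoEV it was not called although the libraries did not overlap (log2 0.14, 95% interval −0.00 to 0.28, adjusted p = 0.124). It was 1.39-fold higher with STS_apoEV than with DDP_apoEV (log2 0.48, SE 0.0691, adjusted p = 1.16e-06).

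ABCC3 (chromosome 17, 50634777 to 50692253, plus strand) held 382, 393 and 434 CPM in control, 331, 335 and 339 in DDP_apoEV, and 564, 509 and 477 in STS_apoEV. No 2 groups overlapped, with DDP_apoEV lowest and STS_apoEV highest. The means were 403 ± 27.4, 335 ± 4.24 and 517 ± 44.0 CPM (SD, n = 3). ABCC3 fell 1.20-fold with DDP_apoEV (log2 −0.27, SE 0.0734, adjusted p = 0.0109) and rose 1.28-fold with STS_apoEV (log2 0.36, SE 0.0732, adjusted p = 0.000220). Between the vesicle types it differed 1.54-fold (log2 0.63, SE 0.0735, adjusted p = 2.30e-08). The fall with DDP_apoEV was not called without control replicate 3 (adjusted p = 0.103) or DDP_apoEV replicate 1 (adjusted p = 0.0511), or by limma on log2(FPKM + 1) with no filter (adjusted p = 0.144).

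ABCC1 and ABCC4 each changed with STS_apoEV. ABCC1, an exporter of glutathione conjugates and leukotriene C4 (chromosome 16, 15949138 to 16143257, plus strand), held 12.8, 13.7 and 14.8 CPM in control, 11.6, 14.4 and 11.6 in DDP_apoEV, and 21.8, 23.1 and 15.8 in STS_apoEV. The STS_apoEV libraries lay above all others, with replicate 3 closest to them, while the other groups overlapped. The means were 13.7 ± 1.02, 12.5 ± 1.64 and 20.2 ± 3.86 CPM (SD, n = 3). ABCC1 rose 1.47-fold with STS_apoEV (log2 0.56, SE 0.139, adjusted p = 0.00184) and was 1.61-fold higher there than with DDP_apoEV (log2 0.69, SE 0.139, adjusted p = 0.000145). With DDP_apoEV against control it was not called (log2 −0.13, 95% interval −0.42 to 0.16, adjusted p = 0.612). By limma on log2(FPKM + 1) with no filter the rise with STS_apoEV was not called (adjusted p = 0.115).

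ABCC4, an exporter of cyclic nucleotides and prostaglandins (chromosome 13, 95019835 to 95301475, minus strand), held 131, 135 and 126 CPM in control, 116, 129 and 126 in DDP_apoEV, and 103, 88.8 and 100.2 in STS_apoEV. The STS_apoEV libraries lay below all others, and control and DDP_apoEV overlapped. The means were 131 ± 4.52, 123 ± 6.63 and 97.4 ± 7.54 CPM (SD, n = 3). ABCC4 fell 1.34-fold with STS_apoEV (log2 −0.43, SE 0.0775, adjusted p = 5.29e-05) and was 1.27-fold lower there than with DDP_apoEV (log2 −0.34, SE 0.0775, adjusted p = 0.000592). With DDP_apoEV it was not called (log2 −0.08, 95% interval −0.24 to 0.07, adjusted p = 0.533).

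**Figure D3:**
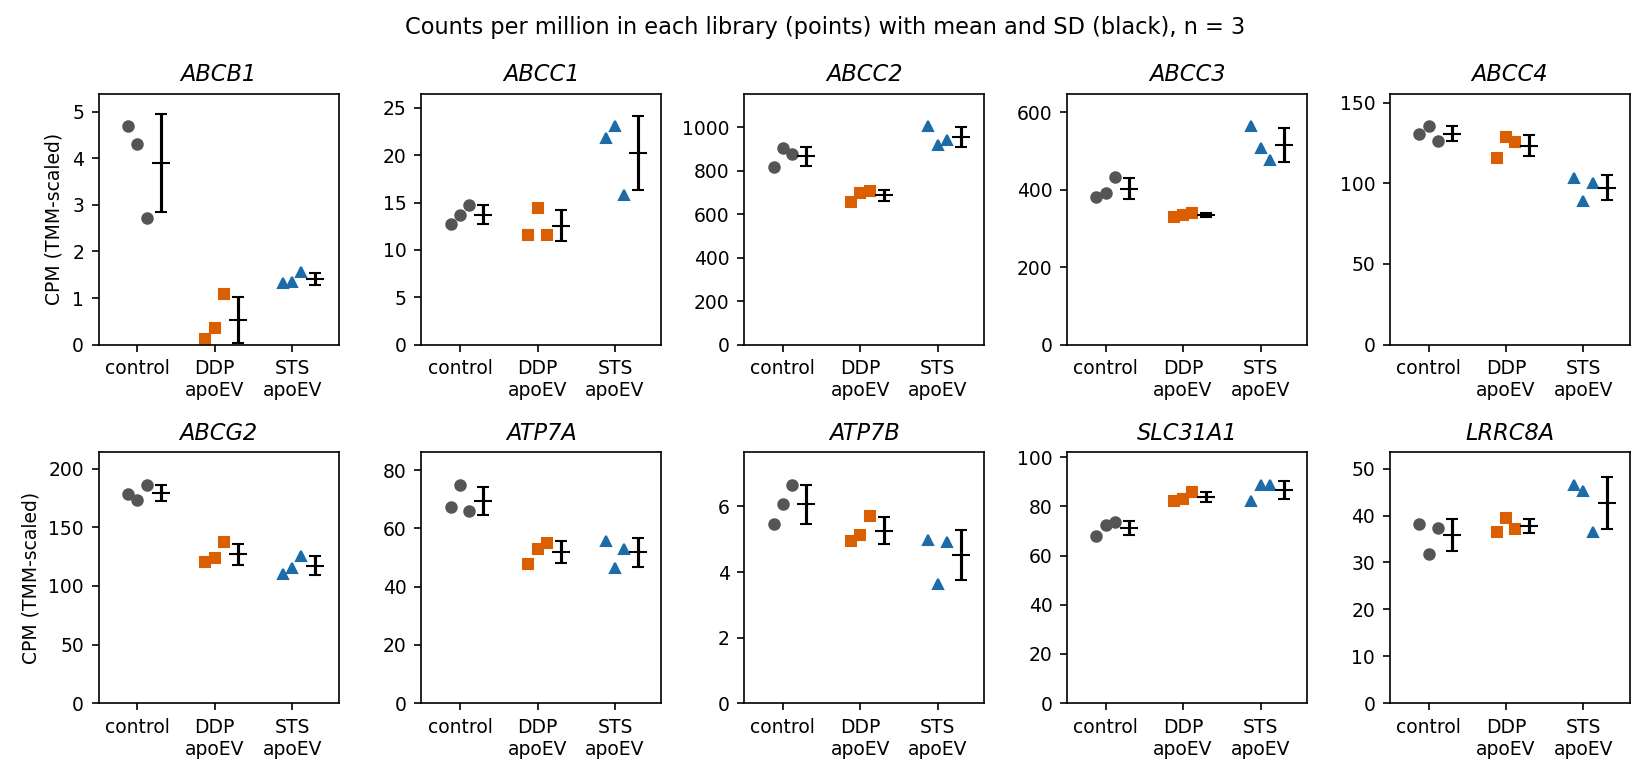
CPM of the 10 carriers in each of the 9 libraries, 1 panel a gene with its own axis from 0, coloured points for libraries and black bars for mean and SD. ABCB1, ABCG2 and ATP7A are lower in all 6 treated libraries than in any control, and SLC31A1 is higher in all 6.

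ATP7A, the copper pump of the secretory pathway that most tissues use to export copper, fell with both vesicles. Its row spans chromosome X from 77910690 to 78050395 on the plus strand. The libraries held 67.5, 75.0 and 65.8 CPM in control, 47.6, 53.1 and 54.9 in DDP_apoEV, and 55.8, 46.3 and 53.1 in STS_apoEV. All treated libraries were below all controls, and the vesicle groups overlapped. The means were 69.4 ± 4.88, 51.9 ± 3.77 and 51.7 ± 4.91 CPM (SD, n = 3). ATP7A fell 1.34-fold with DDP_apoEV (log2 −0.42, SE 0.0877, adjusted p = 0.000735) and 1.34-fold with STS_apoEV (log2 −0.42, SE 0.0881, adjusted p = 0.000277). The difference between vesicle types had a 95% interval of −0.19 to 0.18 (adjusted p = 0.973). In 3 limma fits on FPKM the DDP_apoEV change was not called, with adjusted p from 0.0530 to 0.145, and in the unfiltered one neither was the STS_apoEV change (adjusted p = 0.0560). ATP7A overlaps the row of PGK1, a glycolytic enzyme gene with 13454 to 17721 counts a library, by 139657 bp on the same strand. PGK1 fell by 0.19 with DDP_apoEV (adjusted p = 0.0492) and by 0.22 with STS_apoEV (adjusted p = 0.00891) on the log2 scale, and its part in the ATP7A values was not tested.

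ATP7B, the copper pump best known from liver (chromosome 13, 51930436 to 52012125, minus strand), was low and was not called in any comparison. Its libraries held 5.47, 6.09 and 6.66 CPM in control, 4.94, 5.12 and 5.72 in DDP_apoEV, and 4.98, 3.64 and 4.93 in STS_apoEV. The STS_apoEV libraries were below the controls, and the DDP_apoEV libraries overlapped both other groups. With STS_apoEV the change was −0.43 on the log2 scale (95% interval −0.85 to −0.01, adjusted p = 0.114), with DDP_apoEV −0.21 (adjusted p = 0.559), and between vesicle types −0.22 (adjusted p = 0.427). It had 54 to 96 counts a library.

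SLC31A1, the plasma membrane copper importer also called CTR1, rose by a small amount with both vesicles. Its row spans chromosome 9 from 113221544 to 113264492 on the plus strand. The libraries held 68.2, 72.3 and 73.5 CPM in control, 82.4, 83.0 and 86.1 in DDP_apoEV, and 82.4, 88.8 and 88.8 in STS_apoEV. All 6 treated libraries were above all controls, and the vesicle groups overlapped. The means were 71.3 ± 2.78, 83.8 ± 1.98 and 86.7 ± 3.72 CPM (SD, n = 3). SLC31A1 rose 1.18-fold with DDP_apoEV (log2 0.23, SE 0.0770, adjusted p = 0.0352) and 1.22-fold with STS_apoEV (log2 0.28, SE 0.0772, adjusted p = 0.00466). The difference between vesicle types was not called (log2 0.05, 95% interval −0.11 to 0.20, adjusted p = 0.657). The DDP_apoEV call was lost when any 1 of the 6 libraries compared was left out (adjusted p from 0.0681 to 0.152), and in edgeR with no filter on low counts (adjusted p = 0.0906). CDC26 overlaps SLC31A1 on the opposite strand by 8658 bp with 254 to 387 counts a library, and the sources used here do not say whether counting used the strand. CDC26 changed by 0.32 with DDP_apoEV (adjusted p = 0.0527) and 0.16 with STS_apoEV (adjusted p = 0.312), neither called.

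LRRC8A, the subunit that volume-regulated anion channels require (chromosome 9, 128882133 to 128918039, plus strand), rose with STS_apoEV with an adjusted p close to the threshold. Its libraries held 38.2, 31.9 and 37.3 CPM in control, 36.6, 39.6 and 37.2 in DDP_apoEV, and 46.6, 45.2 and 36.4 in STS_apoEV. STS_apoEV replicate 3 lay among the controls, and the groups overlapped. The means were 35.8 ± 3.43, 37.8 ± 1.58 and 42.7 ± 5.52 CPM (SD, n = 3). The change was 0.25 with STS_apoEV (SE 0.0987, adjusted p = 0.0457) and 0.08 with DDP_apoEV (adjusted p = 0.677) on the log2 scale. The STS_apoEV call was lost under 16 of 19 alternatives, with adjusted p up to 0.288.

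Of the other subunits of the same channels, 3 of 4 fell with STS_apoEV, beside 16.8% of all genes. LRRC8D, which with LRRC8A admits cisplatin and other small molecules, fell from 84.4 ± 8.97 CPM in control to 49.7 ± 2.63 (n = 3, log2 −0.76, adjusted p = 1.07e-08), and LRRC8C fell by 0.42 on the log2 scale (adjusted p = 0.00717). LRRC8B fell by 0.31 (adjusted p = 0.0393), a call lost under 11 of 19 alternatives, and LRRC8E was not called at 0.690 ± 0.262 CPM with STS_apoEV. With STS_apoEV 0 of 4 rose, also at an unadjusted p under 0.05 and by DESeq2, which called 2 of 4 lower. Without control replicate 2, 1 of 4 was called lower. With DDP_apoEV 0 of 4 were called by edgeR or DESeq2, beside 15.5% of all genes in edgeR. At an unadjusted p under 0.05, 2 were higher, and LRRC8D was at 80.1 ± 1.68 CPM. The same 3 were lower with STS_apoEV than with DDP_apoEV, beside 19.5% of all genes. The median over the 4 was −0.62 against 0.03 over all genes.

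Other copper genes showed few calls, beside 15.5% of all genes called with DDP_apoEV, 32.8% with STS_apoEV and 39.7% between vesicle types. Of 13 tested of 14 listed, 0 were called with DDP_apoEV by edgeR or DESeq2, with 2 higher and 1 lower at an unadjusted p under 0.05. ATOX1, the chaperone that hands copper to the ATPases, rose by 0.31 on the log2 scale with STS_apoEV (adjusted p = 0.0320), a call lost under 9 of 19 alternatives, and the metalloreductase gene STEAP2 rose by 0.23 (adjusted p = 0.0453), lost under 15 of 19. DESeq2 called 0 of these genes with STS_apoEV, and 0 were lower in edgeR even at an unadjusted p under 0.05. SLC31A2, a relative of SLC31A1, was not called (log2 −0.64, adjusted p = 0.540 with DDP_apoEV, and 0.09, adjusted p = 0.928 with STS_apoEV). Of 6 tested of 12 other ABC drug transporters, 0 were called against control by edgeR or DESeq2, and at an unadjusted p under 0.05 there was 1 lower with DDP_apoEV, and 1 higher and 1 lower with STS_apoEV. ABCA3, a lipid pump of lung alveolar cells, was higher with STS_apoEV than with DDP_apoEV (log2 0.36, adjusted p = 0.0104), and without STS_apoEV replicate 1 no gene of that list was called. Between vesicle types the copper list had 1 gene higher, STEAP2, and 2 lower, COX11 and SCO1, both of which deliver copper to cytochrome oxidase.

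Among 7 tested organic cation carriers and other platinum-linked genes, SLC22A4, an ergothioneine carrier, rose with both vesicles, from 5.34 ± 0.919 CPM in control to 8.91 ± 1.58 with DDP_apoEV (log2 0.74, adjusted p = 0.00398) and 10.7 ± 1.39 with STS_apoEV (log2 1.01, adjusted p = 4.05e-05). With DDP_apoEV it was the 1 gene of that list called, by edgeR and by DESeq2, beside 15.5% of all genes in edgeR. In that comparison 0 of the list were called lower, with 1 lower at an unadjusted p under 0.05. With STS_apoEV 2 of the 7 rose and 2 fell, beside 15.9% and 16.8% of all genes. There TMEM205, a gene linked to platinum resistance, also rose (log2 0.72, adjusted p = 1.19e-07). The carnitine carrier SLC22A5 fell by 0.67 (adjusted p = 2.00e-06) and the cation exporter SLC47A1 fell by 0.56 (adjusted p = 1.61e-05). Between vesicle types TMEM205 and SLC47A2 were higher with STS_apoEV, the latter a call lost under 10 of 17 alternatives, and SLC22A5 and SLC47A1 were lower. Of all genes, 20.2% were higher and 19.5% lower there.

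Genes of glutathione supply and conjugation make substrates for the ABCC pumps. Of 17 tested glutathione genes, 0 rose and 3 fell with DDP_apoEV in edgeR and in DESeq2, beside 7.16% and 8.32% of all genes in edgeR. In the list 1 was higher at an unadjusted p under 0.05. With STS_apoEV 7 rose and 3 fell, beside 15.9% and 16.8% of all genes. DESeq2 called 6 of the list higher and 3 lower, and fits with 1 library left out called 5 or 6 higher. With DDP_apoEV the falls were in GCLM, the modifier subunit of glutamate-cysteine ligase (log2 −0.37, adjusted p = 0.000255), MGST3 (log2 −0.28, adjusted p = 0.00664) and GSTK1 (log2 −0.29, adjusted p = 0.0100). With STS_apoEV the catalytic subunit GCLC rose from 281 ± 13.1 to 377 ± 15.4 CPM (log2 0.42, adjusted p = 1.33e-05) and the cystine importer SLC7A11 rose by 0.37 on the log2 scale (adjusted p = 0.000188). GCLM fell with STS_apoEV too, by 0.26 (adjusted p = 0.00438). The transferases GSTM3 (log2 0.58, adjusted p = 0.00248) and MGST1 (log2 0.27, adjusted p = 0.00264) rose as well. Between vesicle types 8 were higher and 1 lower with STS_apoEV, beside 20.2% and 19.5% of all genes. The list was led by GCLC, GSTK1, MGST2 and MGST3, all higher. The number lower was 0 without DDP_apoEV replicate 1 or 2 or STS_apoEV replicate 3. Reads of the glutathione S-transferase mu genes can be split between near-identical copies.

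The NRF2 list holds 25 genes of the antioxidant response that also governs several ABC pumps. With DDP_apoEV it had 0 higher and 12 lower, beside 7.16% and 8.32% of all genes, and a median of −0.21. DESeq2 gave the same counts, and 0 were higher at an unadjusted p under 0.05. The number lower was 7 without control replicate 1, 7 without DDP_apoEV replicate 2 and 6 by limma on log2(FPKM + 1) with no filter. NFE2L2, which encodes NRF2, fell from 119 ± 0.526 to 87.7 ± 3.09 CPM (log2 −0.44, adjusted p = 6.31e-05). AKR1C1, AKR1B10, AKR1C2 and UGDH had the smallest adjusted p, and AKR1C1 fell by 0.59 on the log2 scale (adjusted p = 6.97e-08), though it and AKR1C2 are close copies that counting could split. With STS_apoEV 5 rose and 8 fell, beside 15.9% and 16.8% of all genes, and the median of the list was −0.02. NFE2L2 was not called there (log2 0.10, adjusted p = 0.353). Of the small MAF partners of NRF2, MAFK fell by 0.68 (adjusted p = 2.28e-07) and MAFG rose by 0.38 (adjusted p = 0.000160), and GCLC and SLC7A11 are also on this list. AKR1C1 rose by 0.31 with STS_apoEV (adjusted p = 0.000530). Between vesicle types 15 genes were higher and 2 lower with STS_apoEV, beside 20.2% and 19.5% of all genes. The list was led by AKR1C1 (log2 0.89, adjusted p = 2.04e-12), NFE2L2 (log2 0.54, adjusted p = 6.73e-07), GCLC and MAFG. KEAP1, the partner that marks NRF2 for destruction, was not called against control and was higher with STS_apoEV than with DDP_apoEV (log2 0.31, adjusted p = 0.00825).

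Of 13 tested genes of xenobiotic oxidation and glucuronidation, 0 rose and 6 fell with DDP_apoEV (median −0.49), beside 7.16% and 8.32% of all genes. With STS_apoEV 10 rose and 0 fell (median 0.40), beside 15.9% and 16.8%. DESeq2, which tested 16 of the list, called 6 lower with DDP_apoEV and 9 higher with STS_apoEV, with 0 the other way. At an unadjusted p under 0.05 edgeR had 2 higher with DDP_apoEV and 0 lower with STS_apoEV. Between the vesicle types 13 of 13 were higher with STS_apoEV, beside 20.2% of all genes. DESeq2 called 11 of 16 tested higher there, and limma on log2(FPKM + 1) for genes at a mean FPKM of 1 or more called 8 of 9. CYP1A1, an enzyme of aromatic hydrocarbon oxidation, held 0, 1 and 1 counts in control, 4, 7 and 1 in DDP_apoEV, and 44, 58 and 58 in STS_apoEV, the last group above both others (adjusted p = 1.97e-09 against control). CES1, a carboxylesterase, held 7.93 ± 0.726 CPM in control, 3.79 ± 1.14 with DDP_apoEV (log2 −1.07, adjusted p = 8.47e-05) and 14.4 ± 0.864 with STS_apoEV (log2 0.86, adjusted p = 0.000158). ALDH3A1, an aldehyde dehydrogenase, rose by 1.24 on the log2 scale with STS_apoEV (adjusted p = 2.07e-05). ALDH1A1, of retinal oxidation, rose by 0.36 (adjusted p = 0.000143). The other falls of smallest adjusted p with DDP_apoEV were in the P450 genes CYP2S1 (log2 −0.77, adjusted p = 1.64e-06) and CYP3A5 (log2 −0.92, adjusted p = 3.41e-05) and in the epoxide hydrolase gene EPHX1 (log2 −0.52, adjusted p = 3.64e-05). Of these, CYP3A5 (log2 0.65, adjusted p = 0.000293) and EPHX1 (log2 0.39, adjusted p = 0.000547) rose with STS_apoEV. Between vesicle types CES1, EPHX1, CYP3A5 and CYP1B1 had the smallest adjusted p. UGT1A1 and UGT1A6 share exons, so their counts cannot be told apart with certainty.

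Regulators of these genes were mixed, with 2 of 16 tested higher and 5 lower with DDP_apoEV, beside 7.16% and 8.32% of all genes. With STS_apoEV 4 were higher and 4 lower, beside 15.9% and 16.8%. With DDP_apoEV, 3 were lower without DDP_apoEV replicate 1, and 1 was higher without any 1 of control replicates 2 and 3 and DDP_apoEV replicates 1 and 2. With STS_apoEV, 2 were higher without any 1 of the 3 controls or of STS_apoEV replicates 1 and 2. EPAS1, the hypoxia factor HIF-2 alpha, rose with both, by 1.02 (adjusted p = 2.66e-07) and 0.63 (adjusted p = 5.77e-05) on the log2 scale, and HNF4A, a regulator of liver and gut genes, fell with both, by 0.87 (adjusted p = 3.41e-05) and 0.49 (adjusted p = 0.00658). HIF1A, the other hypoxia factor, fell by 0.31 with each vesicle (adjusted p = 0.00245 and 0.000942). PPARA, a lipid-sensing receptor gene, fell by 0.97 with DDP_apoEV (adjusted p = 0.000619), PPARG fell by 0.59 with STS_apoEV (adjusted p = 1.23e-05) and rose by 0.29 with DDP_apoEV (adjusted p = 0.0289, a call lost under 7 of 19 alternatives), and their partner RXRA rose by 0.36 with STS_apoEV (adjusted p = 0.00492). Between vesicle types 7 regulators were higher and 3 lower with STS_apoEV, beside 20.2% and 19.5% of all genes. PPARG (lower), PPARA (higher) and EPAS1 (lower) were among the regulators of smallest adjusted p. The number higher was 3 without DDP_apoEV replicate 1 or STS_apoEV replicate 1 and 4 without STS_apoEV replicate 2. AHR, the aryl hydrocarbon receptor gene, was not called against control (log2 −0.23, adjusted p = 0.0559 with DDP_apoEV, and 0.07, adjusted p = 0.568 with STS_apoEV). It was higher with STS_apoEV than with DDP_apoEV (log2 0.30, adjusted p = 0.00410). NR1I2, the pregnane X receptor gene that regulates ABCB1 in liver and gut, did not pass the filter on low counts.

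Genes listed for the anchoring and trafficking of carriers were called in 7 of 10 with DDP_apoEV, beside 15.5% of all genes. Of these, 2 were higher and 5 lower, beside 7.16% and 8.32%. With STS_apoEV 5 of 10 were called, beside 32.8%, with 1 higher and 4 lower, beside 15.9% and 16.8%. The number higher was 1 with DDP_apoEV without control replicate 1 or 3 or DDP_apoEV replicate 2, and 0 with STS_apoEV without control replicate 1 or STS_apoEV replicate 2. PDZK1, a scaffold that binds ABC pumps at the apical membrane and has a close pseudogene copy that counting could split, fell from 7.28 ± 0.921 CPM to 1.83 ± 0.0954 with DDP_apoEV (log2 −1.99, adjusted p = 5.90e-07) and to 1.27 ± 0.323 with STS_apoEV (log2 −2.51, adjusted p = 6.22e-09). EZR, which ties such scaffolds to actin, fell with both, by 0.35 (adjusted p = 0.000354) and by 0.80 (adjusted p = 3.95e-11). CAV1, the caveolar coat gene, rose with DDP_apoEV (log2 0.29, adjusted p = 0.00445) and fell by 0.70 with STS_apoEV (adjusted p = 3.26e-09). The scaffold genes NHERF2 (log2 −0.76, adjusted p = 2.86e-07) and NHERF1 (log2 −0.50, adjusted p = 0.000574) fell with DDP_apoEV, and RDX, a relative of EZR, fell by 0.63 with STS_apoEV (adjusted p = 4.58e-08). Between vesicle types 3 were higher and 4 lower with STS_apoEV, beside 20.2% and 19.5% of all genes. The list was led by CAV1 (lower), NHERF2 (higher), EZR (lower) and PIM1 (higher).

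The list of 19 genes that recognise or repair platinum adducts had 3 higher and 0 lower with DDP_apoEV in edgeR and DESeq2. All genes gave 7.16% and 8.32% in edgeR, and 2 of the list were lower at an unadjusted p under 0.05. With STS_apoEV 1 was higher and 10 were lower, beside 15.9% and 16.8% of all genes. MSH6, of mismatch recognition, held 153 ± 9.27 CPM in control, 193 ± 3.49 with DDP_apoEV (log2 0.33, adjusted p = 0.00195) and 87.5 ± 7.43 with STS_apoEV (log2 −0.81, adjusted p = 5.85e-10). FANCD2 and BRCA1, of crosslink repair and homologous recombination, fell by 0.83 (adjusted p = 1.05e-09) and 0.60 (adjusted p = 1.62e-07) with STS_apoEV. The ERCC1 call with DDP_apoEV, at log2 0.28 (adjusted p = 0.0193), was lost under 6 of 19 alternatives. Between vesicle types 2 were higher and 11 lower with STS_apoEV, beside 20.2% and 19.5% of all genes, with MSH6, FANCD2 and BRCA1 among the lower. The number higher was 0 without any 1 of DDP_apoEV replicates 1 and 2 and STS_apoEV replicate 1. These lists were chosen with results of these data known, so their counts are descriptions, to be read beside the shares of all genes called in each comparison.

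**Figure D4:**
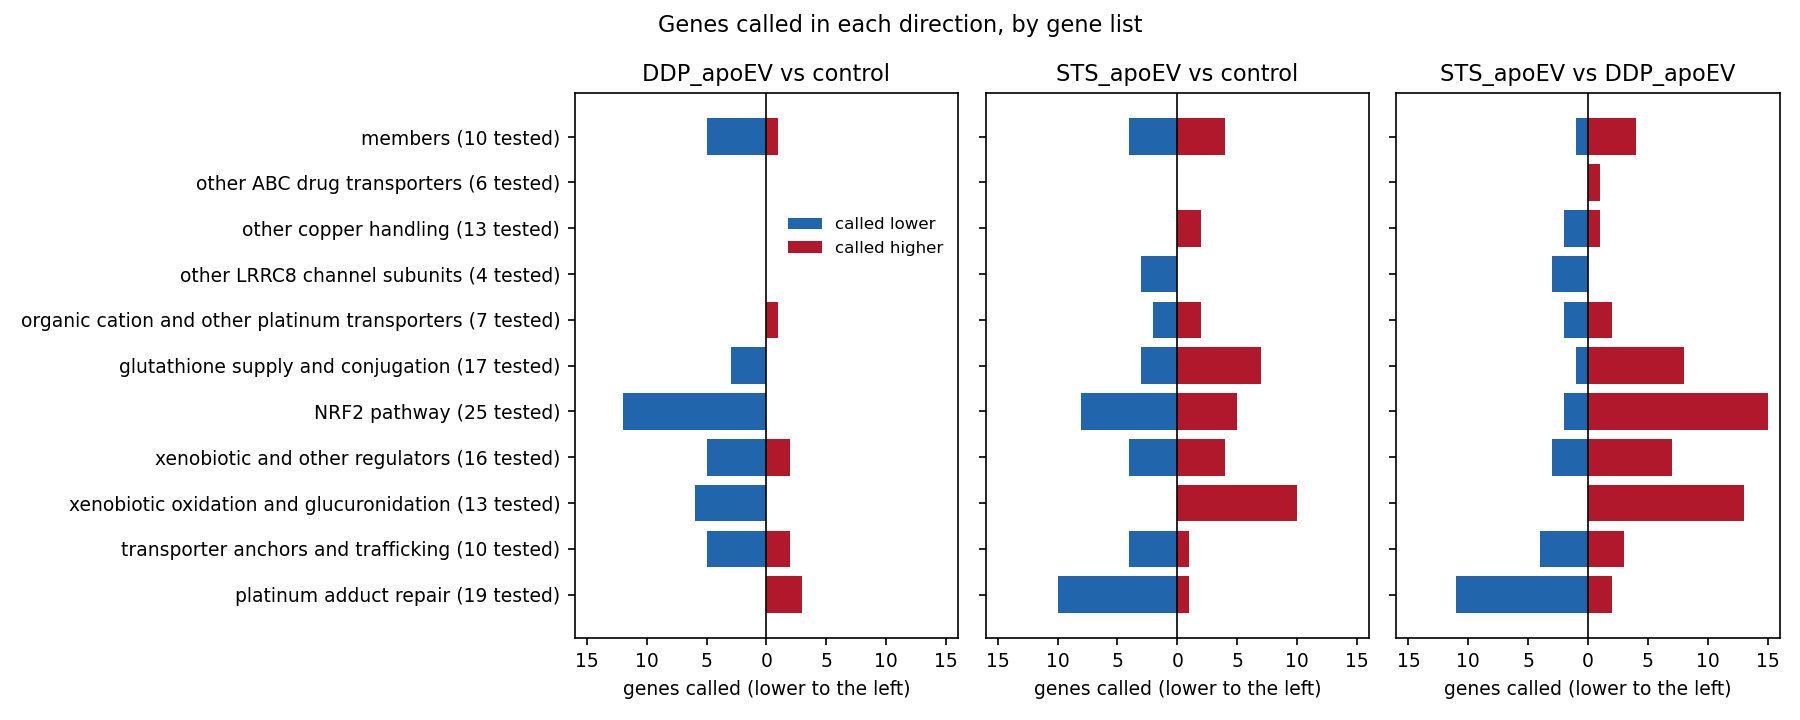
Number of genes called higher (right) and lower (left) in the 3 comparisons, for the 10 carriers and 10 related lists, with the number tested in brackets. The xenobiotic oxidation and glucuronidation list has 6 lower with DDP_apoEV and 10 higher with STS_apoEV, beside 8.32% and 15.9% of all genes.

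Over the 9 libraries, the genes whose log2 CPM was most alike that of ABCB1 were MCU, the pore of the mitochondrial calcium uniporter (Pearson r = 0.964), CHKA, a choline kinase (r = 0.962), and BCL2L15, of the BCL2 family (r = 0.961), among 12739 genes compared. For ABCG2 they were SLC27A2, an acyl-CoA synthetase (r = 0.990), DDC, the dopa decarboxylase (r = 0.989), and GNE, an enzyme of sialic acid synthesis (r = 0.979), among 12738. These values describe 9 points that fall into 3 groups. MCU went from 160.5 CPM in control to 116 with DDP_apoEV and 137 with STS_apoEV, and SLC27A2 from 122 to 83.7 and 80.6.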

How the data were processed

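Per the labels' protocols, TRIzol was used for extraction of RNA and NEBNext Ultra for the 9 libraries. The authors deposited raw read counts per gene and FPKM values, which scale counts by gene length and depth. Per the submitters' processing notes, HISAT2 2.0.5, StringTie 1.3.3b, featureCounts 1.5.0-p3 and hg38 were used, and their roles are not given in the sources used here.

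Sample titles gave group and replicate. The members were taken by symbol. Members and gene lists were chosen with earlier results of these data known. Counts were fitted with edgeR 4.0.16 (R 4.3.3), as the quasi-likelihood test with robust settings, TMM scaling and filterByExpr at its defaults, in 1 fit of all 9 libraries with group as the sole factor. Adjusted p-values are Benjamini-Hochberg over all 16947 genes, with a threshold of 0.05 and no fold minimum. Each SE was worked back as the size of the log2 fold change over the square root of the test's F statistic. The 95% intervals extend by that SE times a t quantile. CPM of genes is per TMM-scaled library size, and that of marker sums per unscaled total. The fitting was tested on simulated counts. Likeness used log2(CPM + 0.5). Alternatives were other scalings and filters, DESeq2 1.42.0, limma 3.58.1 on log2(FPKM + 1) and log2(FPKM + 0.1), a replicate block, fits of 6 libraries and each library left out. All members are named. From each other list up to 4 called genes of smallest adjusted p a comparison are named, together with ATOX1, SLC31A2, LRRC8B to LRRC8E, NFE2L2, KEAP1, NR1I2 and AHR. Some genes that this rule takes are not reported here. Protein sequences were not used here.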

Additional observations from a re-analysis of the deposited data

Results flagged for a closer look

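The members flagged are those called between the vesicle types by the edgeR test already given above, so they add no further test. They are 5 of 10, a count close to the share of all genes, 39.7%. ABCB1 was higher with STS_apoEV than with DDP_apoEV by 1.42 on the log2 scale, ABCC1 by 0.69, ABCC2 by 0.48 and ABCC3 by 0.63. ABCC4 was lower with STS_apoEV, with a difference of −0.34. Every library of one vesicle type lay on the same side of every library of the other for these 5 genes. The libraries did not overlap for 47.5% of all genes. The ABCB1 difference rests on 2 to 22 counts a library, and its call was lost under 4 of 17 alternatives.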

How the results depend on the processing

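No called member changed direction under any alternative run. Of 558 alternative values of the 30 member results, 515 kept their direction and their side of the threshold, 38 were no longer called, 1 became called and 4 changed sign, and 19 of the 30 results kept both throughout. The 4 belong to changes near 0 that were not called in any fit. LRRC8A with DDP_apoEV ran from −0.000516 (without control replicate 2) to 0.127 (without control replicate 1). ATP7A between vesicle types was 0.0267 with upper-quartile factors, and ran from −0.0732 (without STS_apoEV replicate 1) to 0.0691 (without STS_apoEV replicate 2), with 0.0343 without DDP_apoEV replicate 3. Of the gene lists, by limma on log2(FPKM + 1) with no filter 8 NRF2 genes were higher between vesicle types (15 in edgeR). In the same fit 3 glutathione genes (7) and 6 oxidation genes (10) rose with STS_apoEV, and 0 repair genes (3) rose with DDP_apoEV. Fewer of all genes were called there too, in either direction. They were 4352 of 37966 between vesicle types, 3312 with STS_apoEV and 787 with DDP_apoEV. The edgeR shares of all genes were 39.7%, 32.8% and 15.5%, and the lower list counts are to be read beside that drop. The value that became called was LRRC8A between vesicle types without STS_apoEV replicate 3 (log2 0.28, adjusted p = 0.0274). Genes called with DDP_apoEV were 2623, against 1617 by limma on log2(FPKM + 1) and 1638 on log2(FPKM + 0.1), both for genes at a mean FPKM of 1 or more, and 787 on log2(FPKM + 1) with no filter, which called 3 of 10 members. That last fit called 3312 genes and 4 members with STS_apoEV (5552 and 8 in edgeR) and 4352 genes between vesicle types (6721 in edgeR). It tested 37966 genes. Leaving out 1 library gave 1841 to 2830 genes and 4 to 6 members with DDP_apoEV, 4621 to 5638 and 7 to 8 with STS_apoEV, and 5856 to 6753 and 4 to 5 between them. In the direction counts, DDP_apoEV genes ran from 787 to 1304 higher and 1030 to 1526 lower, and members from 0 to 1 and 4 to 5. STS_apoEV genes ran from 2083 to 2716 higher and 2453 to 2998 lower, and members from 3 to 4 higher and 4 lower. Between vesicle types genes ran from 2889 to 3315 higher and 2910 to 3438 lower, and members from 3 to 4 higher and 1 lower.

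Same-numbered libraries had correlations of their deviations from −0.164 to 0.106, and 3 of 9 libraries were closest to one of their own number, so the numbers were not taken to pair them. With a replicate block 2359 genes and 5 members were called with DDP_apoEV, 5297 and 7 with STS_apoEV, and 6429 and 5 between vesicle types, SLC31A1 with DDP_apoEV (adjusted p = 0.0580) and LRRC8A with STS_apoEV being lost. ABCB1 and ATP7B had no value under the mean FPKM filter. Counts were few for ABCB1 (2 to 72 a library) and CYP1A1 (0 to 58).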
